A study of Homo sapiens with 6 samples.

Results

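Fatty acid synthesis and its regulator SREBF1 were followed across plating density in MCF10A, an established breast epithelial line of human origin that does not form tumours. The genes were SREBF1, ACLY, ACACA, FASN, SCD, FADS1, FADS2, ACSL1, ACSS2 and GPAM, taken by symbol from a list of 10. Of these, 9 had a probe set that the array annotation assigns to 1 gene symbol, out of 19775 genes with such a probe set. FADS1 had 3 probe sets, each assigned also to MIR1908, and was not analysed here. The cells were plated at 50K, 100K, 200K, 400K, 600K or 800K per 35 mm dish and grown for 24 h, and the RNA of each density was hybridised to 1 Affymetrix HG-U133 Plus 2 array, without replicates. All dishes held the same DMEM/F12 medium with 5% horse serum, 20 ng/ml EGF, 10 μg/ml insulin, 100 ng/ml cholera toxin, 0.5 μg/ml hydrocortisone and 100 μg/ml gentamicin.

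Cells make fatty acids from acetyl-CoA. ACLY cleaves citrate and ACSS2 activates acetate to supply it, ACACA carboxylates it to malonyl-CoA, and FASN joins the units into palmitate. SCD and FADS2 then add double bonds, ACSL1 activates long fatty acids as acyl-CoA, and GPAM passes an acyl-CoA to glycerol phosphate, the entry to glycerolipids. SREBF1 encodes SREBP-1, a membrane-bound transcription factor that is cleaved in the Golgi and then switches on the genes of this route in liver, fat and the lactating mammary gland.

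Each value was a linear ratio of a probe set to the same probe set on the 50K array, which is 1 by construction. A gene's value is the geometric mean over its probe sets. Ratios show changes but no level, so genes cannot be ranked by abundance, and the depth of signal over background is unknown. The test was the change in log2 ratio per doubling of the plated cells (the slope), fitted with limma over all 19775 genes with Benjamini-Hochberg adjustment. A gene was said to have risen or fallen where the adjusted p was under 0.05. Errors after ± are standard errors of the slope from the 6 arrays. The small number of arrays limits precision, and these errors mix variation between samples, technical noise and departures from a line. Fewer cells of a type and less RNA per cell cannot be told apart in such bulk samples.

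SREBF1, ACSS2, ACACA, FASN, SCD, FADS2 and ACSL1 rose with density, GPAM fell, and ACLY did not pass. That is 7 of 9 measured genes rising, where 8.93% of all genes rose, and 1 of 9 falling, where 12.4% of all genes fell. The median slope of the 9 genes was 0.16, beside 0.00 for all genes, and 8 of the 9 slopes were above 0. In 6 of the 9 genes the 3 arrays from 400K to 800K all lay above the 3 arrays from 50K to 200K, as in 13.8% of all genes. GPAM was the measured gene in which the crowded arrays all lay below the sparse ones, as in 17.9% of all genes. FASN and ACLY overlapped between the sparse and the crowded arrays. The 5 rising genes other than ACACA and FASN kept their call with any 1 array left out, and GPAM did too. ACACA did not pass without 50K (adjusted p = 0.154 in limma), 100K (0.0628) or 600K (0.0518), and FASN without 50K (0.282), 100K (0.11), 400K (0.0693) or 600K (0.0983).

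**Figure D1:**
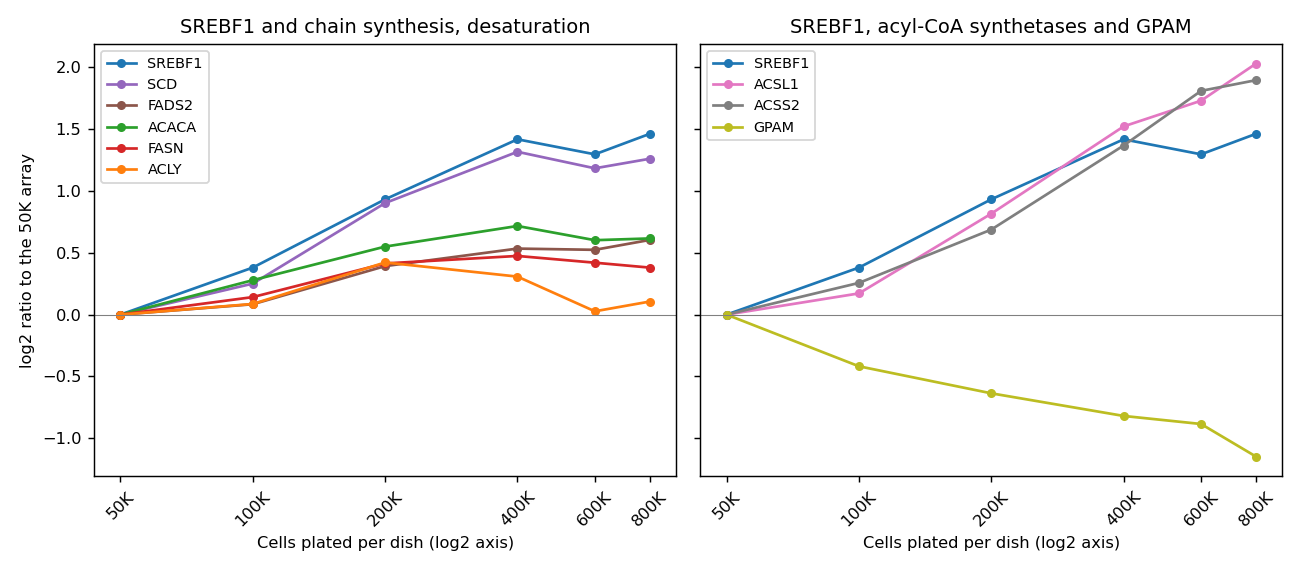
log2 ratio to the 50K array (vertical) of the 9 measured genes against cells plated (horizontal, log2 axis), 1 array a density, with SREBF1 in both panels. As gene values, SREBF1 and SCD run close together and level off from 400K, though the 2 probe sets of SREBF1 differ in size. ACSL1 and ACSS2 go on rising to 800K, ACLY peaks at 200K, and GPAM is lower at every density than at 50K.

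The regulator SREBF1 had ratios of 1.30 (100K), 1.91 (200K), 2.67 (400K), 2.46 (600K) and 2.75 (800K). As a gene value SREBF1 climbed over the first 3 steps, and the 3 crowded arrays then lay within a narrow band. Its slope was 0.38 ± 0.04 (adjusted p = 0.00285 in limma), above that of 98.96% of all genes. The probe sets of SREBF1 differed in size. They differed in direction from 400K to 600K, where 202308_at went from 4.23 to 4.51 and 1558875_at from 1.68 to 1.34. On 202308_at the ratio was 2.99 for 200K and 4.61 for 800K, with a slope of 0.59 ± 0.06 (adjusted p = 0.00601 over all 54613 probe sets). On 1558875_at the ratio was 1.22 for 200K and 1.64 for 800K, and the slope of 0.17 ± 0.04 did not pass (adjusted p = 0.0512; it passed without 400K, at 0.0438). Which transcripts of SREBF1, among them the known isoforms 1a and 1c, each probe set reads was not determined.

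The suppliers of acetyl-CoA went separate ways. ACSS2, the cytosolic acetyl-CoA synthetase, had ratios of 1.19 (100K), 1.61 (200K), 2.58 (400K), 3.50 (600K) and 3.72 (800K). Every array was higher than the one before it, and the slope was 0.51 ± 0.04 (adjusted p = 0.00101 in limma). It rests on 1 probe set, whose suffix _s_at marks a possible match to other transcripts. ACLY, ATP citrate lyase, had ratios of 1.06, 1.34, 1.24, 1.02 and 1.08 from 100K to 800K. It was highest at 200K and back near its 50K value at 600K, and all 3 of its probe sets had this shape. The slope was 0.02 ± 0.04 (95% confidence interval −0.09 to 0.13; adjusted p = 0.86 in limma), and its sign turned without the 50K array, at −0.03. The interval of ACSS2, 0.42 to 0.60, lay apart from that of ACLY.

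By gene value, the enzymes that build the chain had smaller slopes than SREBF1, a difference that was not tested. The order depended on the probe set of SREBF1. On 202308_at its slope, 0.59, was above those of 212186_at of ACACA (0.19) and 212218_s_at of FASN (0.24). On 1558875_at it was 0.17, below both. ACACA, acetyl-CoA carboxylase, had ratios of 1.21 (100K), 1.46 (200K), 1.64 (400K), 1.52 (600K) and 1.53 (800K), with a slope of 0.16 ± 0.03 (adjusted p = 0.0203 in limma). Its probe sets ended at 1.68 on 212186_at, which passed alone (adjusted p = 0.0204; lost without 50K, 100K or 600K), and at 1.40 on 214358_at, which did not (adjusted p = 0.0775). FASN, fatty acid synthase, had ratios of 1.10, 1.33, 1.39, 1.34 and 1.30 from 100K to 800K, and a slope of 0.11 ± 0.03 (adjusted p = 0.0411 in limma). Its gene value averages 2 unlike probe sets. On 212218_s_at FASN reached 1.82 at 200K and 2.01 at 400K (slope 0.24 ± 0.05, adjusted p = 0.0319), while on 217006_x_at every ratio lay between 0.884 and 1.01 (slope −0.03 ± 0.02, adjusted p = 0.387). The suffix _x_at marks probes that may bind unrelated transcripts. The rise on 212218_s_at kept its call only without 200K among the 6 runs that left 1 array out.

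The desaturases rose as well. SCD, which makes oleate and palmitoleate, had ratios of 1.19 (100K), 1.87 (200K), 2.49 (400K), 2.27 (600K) and 2.40 (800K). Its slope was 0.34 ± 0.05 (adjusted p = 0.00572 in limma), and its 4 probe sets stayed between 2.26 and 2.73 at 800K, each of them rising. Without the 50K array 3 of these 4 lost the call (adjusted p from 0.0713 to 0.115), and 211162_x_at lost it also without 100K (0.0602) or 800K (0.057). All 4 carry the suffixes _s_at or _x_at, so SCD has no value without such probe sets. FADS2, the delta-6 desaturase of polyunsaturated chains, had ratios of 1.06, 1.31, 1.45, 1.44 and 1.52 from 100K to 800K and a slope of 0.16 ± 0.02 (adjusted p = 0.0044 in limma). The change came from 1 of its 2 probe sets. On 202218_s_at FADS2 was 1.81 at 200K and 2.24 at 800K (slope 0.31 ± 0.05, adjusted p = 0.014; not passed without 50K or 800K), and on 243953_at every ratio lay between 0.949 and 1.05 (slope 0.01 ± 0.02, adjusted p = 0.791). Without probe sets of those suffixes FADS2 was therefore left with a slope of 0.01 and did not pass (adjusted p = 0.773).

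ACSL1, the acyl-CoA synthetase for long chains, had the steepest slope of the 9 genes. Its ratios were 1.13 (100K), 1.76 (200K), 2.87 (400K), 3.32 (600K) and 4.08 (800K). By gene value each array was higher than the one before. Both probe sets reached similar ends, 3.85 on 201963_at and 4.33 on 207275_s_at. They differed at 100K, with 0.95 on 201963_at and 1.34 on 207275_s_at. The slope was 0.54 ± 0.04 (adjusted p = 0.000922 in limma), above that of 99.49% of all genes.

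GPAM, the mitochondrial glycerol-3-phosphate acyltransferase, had ratios of 0.749 (100K), 0.643 (200K), 0.567 (400K), 0.542 (600K) and 0.451 (800K). By gene value it was lower at each density than at the one before. On 225424_at alone the ratio was 0.696 at 400K and 0.723 at 600K. The gene value ended 2.22-fold below 50K, with a slope of −0.25 ± 0.02 (adjusted p = 0.00218 in limma). Both probe sets fell, to 0.385 on 225420_at (slope −0.34 ± 0.02, adjusted p = 0.00212) and to 0.53 on 225424_at (slope −0.17 ± 0.04, adjusted p = 0.0479). The call of 225424_at was lost without any 1 array except 600K, with adjusted p up to 0.277 (without 50K).

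**Figure D2:**
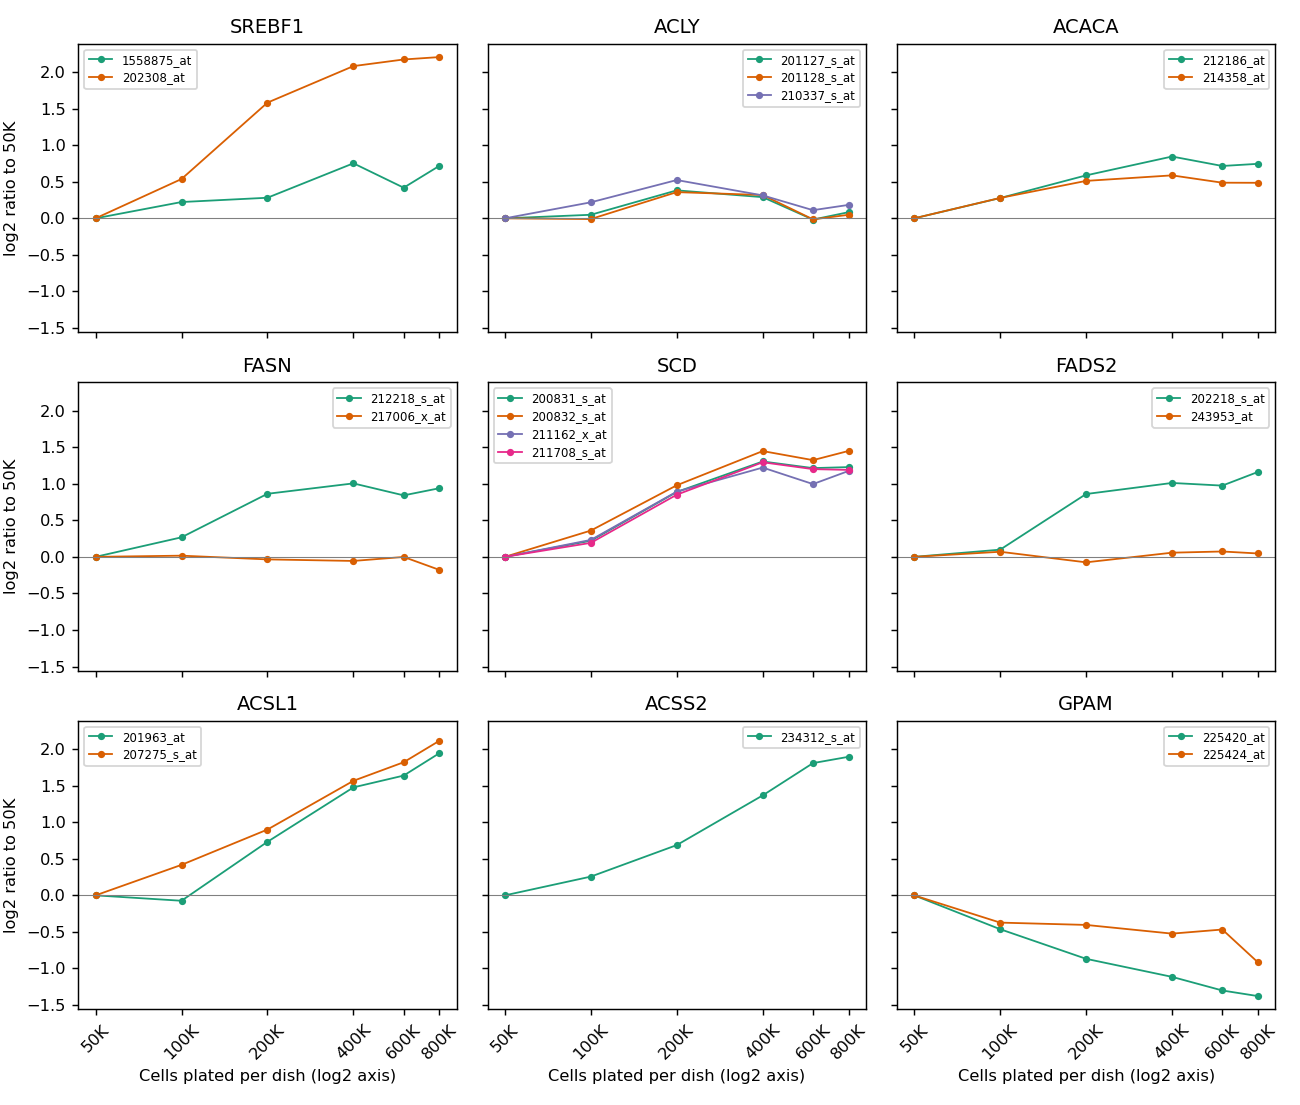
log2 ratio to the 50K array (vertical) of each probe set of the 9 genes against cells plated (horizontal, log2 axis), 1 line a probe set and 1 array a density. The 4 probe sets of SCD and the 3 of ACLY overlie each other, whereas 217006_x_at of FASN and 243953_at of FADS2 stay near 0 beside a partner that rises.

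Of the 20 probe sets of the 9 genes, 11 rose, 2 fell and 7 did not pass. Among all 54613 probe sets that are not controls, 5.94% rose and 7.96% fell. With 1 array left out the number of the 20 that passed was lowest without 50K, at 6.

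In order of slope came ACSL1 (95% confidence interval 0.45 to 0.62), ACSS2, SREBF1 (0.28 to 0.47) and SCD (0.23 to 0.46), and each of these neighbours overlapped the next within its interval. The intervals of FADS2 (0.11 to 0.21), ACACA (0.08 to 0.24) and FASN (0.04 to 0.17) overlapped each other and lay below that of SREBF1. That of GPAM, −0.31 to −0.20, lay apart from all others. Differences between these slopes were not tested. The intervals are of gene values, which average unlike probe sets, and their order was not repeated on single probe sets. Probe set slopes were 0.17 and 0.59 for SREBF1, 0.01 and 0.31 for FADS2, and −0.03 and 0.24 for FASN.

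**Figure D3:**
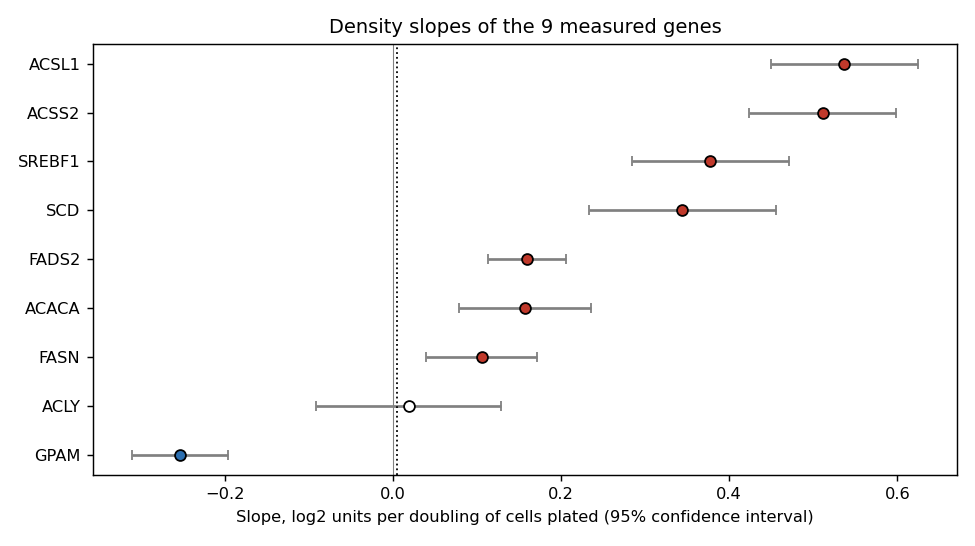
Slope of the log2 ratio per doubling of cells plated (horizontal) for the 9 measured genes, as gene values averaged over probe sets. Bars are 95% confidence intervals from the fit to 6 arrays. Red points rose, the blue point fell, the white point did not pass, and the dotted line is the median slope of all genes, 0.00; ACSL1 and ACSS2 stand highest and GPAM lowest.

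By step of density, the rise was made between 50K and 400K for most of the route. Between 100K and 200K SCD rose by a ratio of 1.57 and ACSL1 by 1.56, the 2 of 9 genes past 1.5-fold, a size reached upward by 0.971% of all genes in that step. Between 200K and 400K ACSL1 (1.63) and ACSS2 (1.60) passed that size, as did 1.35% of all genes. From 400K to 600K the ratio between the arrays was under 1 for 7 of the 9 gene values, while 63.5% of all genes were higher at 600K. Among the 7 were SREBF1 at 0.919, SCD at 0.912, ACACA at 0.923 and ACLY at 0.823. The probe sets of SREBF1 went opposite ways in that step, 1558875_at from 1.68 to 1.34 and 202308_at from 4.23 to 4.51. Also higher at 600K than at 400K were 217006_x_at of FASN, 243953_at of FADS2 and 225424_at of GPAM. ACSS2 (1.36) and ACSL1 (1.16) were higher in that step. ACACA, FASN and SCD had their highest value at 400K, and SREBF1, FADS2, ACSL1 and ACSS2 at 800K. These are single arrays, so a step has no test.

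A quadratic term was fitted to ask whether the genes departed from a line. No measured gene of the 9 and 0% of all genes passed in limma. The robust variance model likewise gave 0 genes. In simulated data 81% of genes with a quadratic term of size 1 were recovered, and smaller terms were not simulated. The terms of the 9 genes lay between −0.29 and 0.23, so the lack of calls does not show that they followed a line. At an unadjusted p under 0.05, 2496 of all 19775 genes and 4 of the 9 passed. The 4 were ACACA (unadjusted p = 0.00962), FASN (0.028) and ACLY (0.0386), which bent downward, and ACSS2 (0.0462), which bent upward. Their adjusted p lay between 0.232 and 0.385.

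Among genes with 2 or more probe sets, SCD lay closest to the gene value of SREBF1. That value averages 2 unlike probe sets, with slopes of 0.59 on 202308_at and 0.17 on 1558875_at. The slope of SCD, 0.34, lay between them, and the ranking was not repeated on either probe set alone. After each gene was centred on its mean log2 ratio, the root mean square difference from SREBF1 over the 6 densities was 0.07 log2 units for SCD, the smallest of 10522 such genes. By this measure ACSL1 ranked 183, ACACA 290, FADS2 309, FASN 702, ACLY 2775 and GPAM 10280 among the 10522, and ACSS2, with 1 probe set, was not ranked. Pearson's r with SREBF1 was 0.99 for SCD and FADS2, 0.97 for ACACA, 0.96 for ACSL1, 0.94 for FASN and ACSS2, 0.36 for ACLY and −0.96 for GPAM. These describe 6 points that share their arrays and the 50K reference. The closest genes outside the route were SUSD2 (difference 0.07), PLEKHA6 (0.10), GRAMD2A (0.10), NIPSNAP1 (0.12) and PTPN13 (0.12). The slope of GRAMD2A was 0.33, and 0.15 without probe sets of the suffixes _x_at and _s_at; that of SUSD2 was 0.35, and 0.55 without them.

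The 250 bases before the RefSeq start of 9 of the 10 genes (18 windows, GRCh38.p14) were searched on both strands for motifs of factors known at lipogenic promoters; the gene not searched was FASN. They are shown because 7 of the 9 measured genes rose with density. The sterol regulatory element TCACNCCAC, a site of SREBPs, was found in 1 window, before the fifth of 5 starts of ACSL1 counted from upstream, and in 0.883% of all 35116 windows. The NF-Y box CCAAT, a known partner site, was found in 7 of the 18 windows, in ACLY, ACACA, SCD, ACSL1 and ACSS2, and in 32.0% of all windows. The Sp1 box GGGCGG was found in 13 windows and in 42.6% of all, and the E-box CACGTG in 0 and in 6.34%. These shares were not matched for GC content. It lay between 43.6% and 83.6% in the 18 windows, mostly above the median of 58% for all windows. Windows of 1 gene can overlap, and both windows of ACLY hold the same 2 NF-Y boxes. Matches of different motifs did not overlap, though some Sp1 boxes overlapped each other in ACACA and ACSL1. Shown 5′ to 3′, with the sterol regulatory element and NF-Y boxes in capitals, are the windows of the rising genes ACSL1 (chr4:184805554-184805803, minus strand), SCD (chr10:100346983-100347232, plus strand) and ACSS2 (first start, chr20:34874739-34874988, plus strand), and that of ACLY, which did not pass (first start, chr17:41919023-41919272, minus strand).
ACSL1: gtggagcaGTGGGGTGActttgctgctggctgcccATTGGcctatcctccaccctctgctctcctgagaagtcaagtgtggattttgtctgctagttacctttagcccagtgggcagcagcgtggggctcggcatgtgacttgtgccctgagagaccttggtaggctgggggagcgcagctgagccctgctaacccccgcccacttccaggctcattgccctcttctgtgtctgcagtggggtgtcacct
SCD: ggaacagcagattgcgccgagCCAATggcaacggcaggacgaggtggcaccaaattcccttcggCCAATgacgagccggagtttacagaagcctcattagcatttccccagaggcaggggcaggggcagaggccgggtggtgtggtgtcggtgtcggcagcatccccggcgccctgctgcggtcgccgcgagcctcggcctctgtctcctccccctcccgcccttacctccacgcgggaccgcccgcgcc
ACSS2: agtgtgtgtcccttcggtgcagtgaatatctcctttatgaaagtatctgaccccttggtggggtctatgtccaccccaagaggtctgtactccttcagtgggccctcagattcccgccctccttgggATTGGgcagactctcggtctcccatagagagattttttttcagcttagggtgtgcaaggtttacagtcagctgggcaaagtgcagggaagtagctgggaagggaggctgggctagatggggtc
ACLY: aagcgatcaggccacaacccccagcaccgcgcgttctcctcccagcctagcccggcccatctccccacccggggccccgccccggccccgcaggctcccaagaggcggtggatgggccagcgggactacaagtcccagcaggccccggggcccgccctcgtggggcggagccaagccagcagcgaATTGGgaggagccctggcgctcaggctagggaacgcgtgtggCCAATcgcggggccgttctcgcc
In ACSL1 the element and the NF-Y box lie 242 to 234 and 215 to 211 bases before the start, both on the opposite strand. SCD has NF-Y boxes 229 to 225 and 186 to 182 bases before it. ACLY, with no slope that passed, also has 2 NF-Y boxes. A match is a stretch of letters, not a measured binding site, and which start MCF10A cells use was not measured.

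Beyond the 9 genes, the wider route was described by lists. Among 22 measured regulators, including SREBP processing factors and AMP kinase subunits, 3 rose (13.6%, beside 8.93% of all genes), 1 fell (4.55%, beside 12.4%) and 18 did not pass. NR1H3, which encodes LXR-alpha, an oxysterol receptor known to switch on SREBF1, had ratios of 1.27, 1.59, 2.02, 2.40 and 2.15 from 100K to 800K (slope 0.31 ± 0.03, adjusted p = 0.00203 in limma, 1 probe set). SREBF2, the paralogue that drives cholesterol synthesis, rose to 1.68 at 800K (slope 0.18 ± 0.02, adjusted p = 0.00391). The coactivator PPARGC1B rose to 1.39 (slope 0.11 ± 0.02, adjusted p = 0.0169), losing its call without 100K or 600K; 2 of its 4 probe sets passed alone. PRKAB1, an AMP kinase subunit, fell to 0.828 (slope −0.06 ± 0.01, adjusted p = 0.0373) and lost its call without 50K, 200K, 600K or 800K. Neither of its 2 probe sets passed alone.

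Of 10 genes of citrate, acetyl-CoA and NADPH supply, 2 rose (20%, beside 8.93% of all genes) and 8 did not pass. IDH1, the cytosolic isocitrate dehydrogenase that yields NADPH, had ratios of 1.33, 1.62, 2.10, 1.99 and 2.01 (slope 0.26 ± 0.03, adjusted p = 0.00557 in limma), and all 3 of its probe sets rose. PDK4, which restrains pyruvate dehydrogenase, rose to 1.67 (slope 0.17 ± 0.03, adjusted p = 0.0151; 0.0541 without 600K). That rise came from 225207_at, at 3.69 for 800K, while the other 2 probe sets of PDK4 were at 1.13 and 1.12 and did not pass (adjusted p = 0.359 and 0.271), and with the median of probe sets the slope was 0.05. Among 17 other genes of chain synthesis, elongation and desaturation, 1 rose (5.88%, beside 8.93% of all genes), 3 fell (17.6%, beside 12.4%) and 13 did not pass. The elongase of palmitate ELOVL6 reached 1.59 at 400K and 1.44 at 800K (slope 0.13 ± 0.03, adjusted p = 0.0417), a call that was lost without any 1 array except 200K. Of its 3 probe sets, 1 passed alone. HACD3, a dehydratase of the elongation cycle, fell to 0.462 (slope −0.29 ± 0.04, adjusted p = 0.00821) on all 4 probe sets. The elongase ELOVL7 was 0.429 at 600K and 0.552 at 800K (slope −0.30 ± 0.06, adjusted p = 0.0221; lost without 100K or 800K), and HACD2 fell to 0.81 (adjusted p = 0.0475; lost without any 1 array except 50K; 1 of its 2 probe sets passed alone).

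Of 22 other acyl-CoA synthetases and glycerolipid enzymes, 4 rose (18.2%, beside 8.93% of all genes), 6 fell (27.3%, beside 12.4%) and 12 did not pass. GPAT3, a glycerol-3-phosphate acyltransferase of the endoplasmic reticulum, had ratios of 0.554, 0.414, 0.264, 0.24 and 0.223 from 100K to 800K. It fell in each step and ended 4.48-fold below 50K (slope −0.54 ± 0.04, adjusted p = 0.00103 in limma). GPAT3 rests on 1 probe set, 224480_s_at, and has no value without probe sets of the suffix _s_at. The other genes of this enzyme activity were looked at after these values were seen. GPAT4 fell to 0.807 (slope −0.09 ± 0.01, adjusted p = 0.00753; 0.142 with the median of its 3 probe sets) and GPAT2 did not pass, with ratios between 1.01 and 1.21. By gene value, GPAM, GPAT3 and GPAT4 fell while ACSL1, which makes acyl-CoA, rose. Whether ACSL1 supplies these acyltransferases in MCF10A was not tested.

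**Figure D4:**
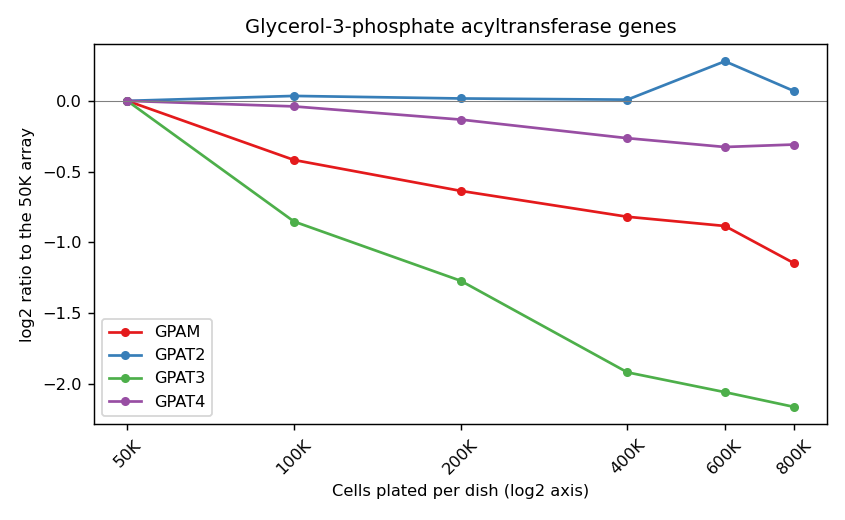
log2 ratio to the 50K array (vertical) of the 4 glycerol-3-phosphate acyltransferase genes against cells plated (horizontal, log2 axis), 1 array a density. GPAT3 ends lowest, GPAM next and GPAT4 a little under 0, and GPAT2 stays at or above 0.

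The lipase MGLL, which releases fatty acids from monoglycerides, fell to 0.314 (slope −0.47 ± 0.05, adjusted p = 0.00297 in limma) and the phosphatidate phosphatase LPIN2 to 0.571 (slope −0.16 ± 0.03, adjusted p = 0.015; 0.0945 without 50K). PNPLA3, a lipid droplet protein known as an SREBP-1 target, rose to 2.54 (slope 0.31 ± 0.03, adjusted p = 0.00248) on both probe sets. ACSL4, which prefers arachidonate, rose to 1.61 (adjusted p = 0.0268), a call lost without 100K, 600K or 800K. LPIN1, the paralogue of LPIN2, rose to 1.86 (adjusted p = 0.0467), a call lost without any 1 array except 200K. Alone, 1 of 3 probe sets passed for ACSL4, 1 of 3 for LPIN1 and 1 of 2 for LPIN2.

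Of 13 genes of fatty acid oxidation, the opposing route, 2 rose (15.4%, beside 8.93% of all genes), 2 fell (15.4%, beside 12.4%) and 9 did not pass. CPT1A, which admits long acyl chains to mitochondria, fell to 0.62 at 800K (slope −0.19 ± 0.02, adjusted p = 0.00228 in limma). Its slope was −0.07 without probe sets of the suffixes _x_at and _s_at, and 1 of its 4 probe sets sloped upward. The receptor PPARD fell to 0.761 (adjusted p = 0.0119), though none of its 4 probe sets passed alone. HADH, a dehydrogenase of beta-oxidation, rose to 1.43 (adjusted p = 0.00869; 0.0605 without 50K) and HADHB to 1.63 (adjusted p = 0.0462; lost without 50K, 100K, 600K or 800K). Of 12 genes of cholesterol synthesis, 1 rose (8.33%, near the 8.93% of all genes), 1 fell (8.33%, beside 12.4%) and 10 did not pass. They were MSMO1, at 1.34 (adjusted p = 0.0427, lost without any 1 array), and PMVK, at 0.802 (adjusted p = 0.0321, lost without any 1 array except 200K). Their median slope was 0.03, beside 0.16 for the 9 genes of fatty acid synthesis.

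**Figure D5:**
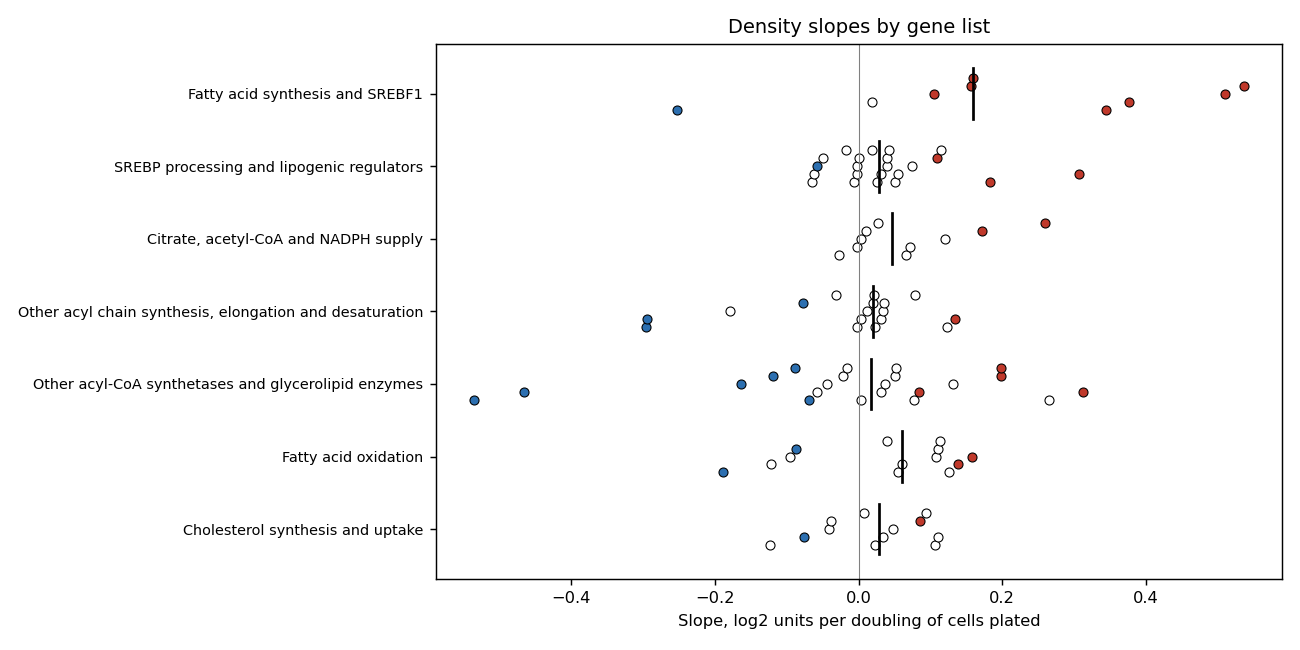
Slope per doubling of cells plated (horizontal) of each measured gene in 7 lists, with the list median as a vertical bar; red points rose, blue points fell, white points did not pass, and vertical offsets within a list only separate points. The median of the 9 fatty acid synthesis genes is 0.16 and those of the other lists lie between 0.02 and 0.06.

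Markers were read for change only, since ratios hold no level and so cannot show whether a marker is absent. Of 6 measured epithelial markers, 3 rose (50%, beside 8.93% of all genes): KRT14 to 3.01, CDH1 to 1.74 and KRT5 to 1.42. The 3 that did not pass were EPCAM (1.30 at 800K), ITGB4 (1.22) and KRT18, which was lower at 800K (0.744). Of 8 adipocyte markers, none rose and PPARG fell to 0.719 (adjusted p = 0.00999 in limma), which is 12.5%, near the 12.4% of all genes. Of 7 fibroblast, 5 endothelial and 4 leukocyte markers, DCN (1.28), KDR (1.73), PECAM1 (1.41) and CD14 (5.66) rose, and 12 did not pass. The risers were 14.3%, 40% and 25% of these sets in turn, beside 8.93% of all genes. The part of the markers in the rise of the fatty acid genes was not tested.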

How the data were processed

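Total RNA (200 ng, biotin label) of each density was hybridised to 1 array, per the labels' protocols; how many dishes an array stands for is not stated. The deposited values are ratios: each probe set is divided by its own 50K value. RMA is named in the submitters' processing notes; its version and the division by 50K are not given in the sources used here. In all 54675 probe sets the 50K value is 1, within 1e-06. Of the probe sets, 41097 had 1 gene symbol. Ratios were put on the log2 scale, averaged per gene and fitted with limma 3.58.1 in R 4.3.3 (two-sided; 4 residual degrees of freedom for the slope, 3 for the quadratic term). Arrays were not rescaled; median ratios lay between 1.013 and 1.036. On simulated data for the slope of 19775 genes, 84% of 100 genes changed 2-fold over the range and 92% of 100 changed 4-fold were recovered, with 12 unchanged genes called.

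The genes and lists were chosen with earlier results of these data known. Named outside the 10 genes were up to 3 rising and 3 falling genes a list, and the 5 genes nearest to SREBF1; GPAT2, GPAT4 and markers were added. Alternatives are in the closing section. Promoter sequences are RefSeq's.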

Additional observations from a re-analysis of the deposited data

How the results depend on the processing

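The 9 slopes kept their sign under the alternatives run, except ACLY, which had no call. Without _x_at and _s_at probe sets, 5 of the genes have a value. The count of 7 rising genes was then 3, where 6.77% of all genes rose. It was 4 with the number of cells plated in place of its log2 (SCD at adjusted p = 0.0503 in limma), where 9.75% of all genes rose. For the 3 highest against the 3 lowest densities it was 2, ACSL1 and ACSS2, where 4.59% of all genes rose. That last contrast left 0 falling genes, where 1 fell before (GPAM at adjusted p = 0.0822), and 6.83% of all genes fell. The count of rising genes was between 5 and 7 with 1 array left out. In those runs between 5.19% (without 800K) and 8.23% (without 200K) of all genes rose. GPAM fell in all 6 of them, where between 6.89% and 11.5% of all genes fell. Over all genes, 4220 had a trend, 2664 without those probe sets and 2259 in the contrast of 3 against 3; with 1 array left out the count was between 2388 (without 800K) and 3909. Centring the arrays gave 6 rising genes, with FASN at adjusted p = 0.0624, where 7.77% of all genes rose. Of the 22 genes of the other lists named by rule, 9 kept their call in all 6 runs that left 1 array out. The contrast of 3 against 3 ended 14 of the 22 calls, among them PDK4 (adjusted p = 0.0505), IDH1 (0.0607), PNPLA3 (0.0654) and SREBF2 (0.08), and the number of cells plated ended 5: IDH1 (0.058), PRKAB1 (0.0686), HADH (0.0763), LPIN1 (0.214) and ELOVL6 (0.217). The median of probe sets ended 4 and leaving out _x_at and _s_at probe sets ended 6 of the 18 with a value. The rank of density ended 2 and the robust variance model 3. Centring also ended the calls of MSMO1, HADHB, ELOVL6, ACSL4 and LPIN1 (adjusted p from 0.0536 to 0.0727). No curvature call was made under any alternative. No paired analysis was possible because each density has 1 array. Signal over background is unknown, so a fall that reached background would be understated.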
